A study of Mus musculus with 9 samples.

Results

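Cytosolic ribosomal proteins are the proteins of the ribosomes that translate mRNA outside mitochondria. Their genes were taken by name from the deposited gene table: Rpl or Rps with a number and at most a closing a, l or x, or Rplp with 0, 1 or 2. The pattern matched 79 of 21930 genes, 49 of the large and 30 of the small ribosomal subunit. Of the 79, 77 had 10 or more counts in at least 3 libraries (47 large, 30 small), and all 77 entered the test across genes. The other two are copies known for expression in testis. Rpl10l had 0 counts in all 9 libraries, which allows up to 3 counts in each. Rpl39l had 0, 0 and 4 counts in LPS plus RSBD libraries, 0, 3 and 4 in LPS libraries and 6, 4 and 0 in control libraries.

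The RNA came from whole lungs of mice labelled male C57BL/6 of 6 to 8 weeks, with 3 libraries labelled as biological replicates in each group. LPS plus RSBD mice received lipopolysaccharide (LPS, the endotoxin of Gram-negative bacteria, at 2 mg/kg into the trachea) and, from the next day, a daily oral dose of RSBD (Renshen Baidu Powder, a herbal decoction), the amount of which the labels do not give. LPS mice received the same LPS and then vehicle. Control mice received saline in place of LPS, all mice were anaesthetised with tribromoethanol, and lungs were taken on day 5.

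A ribosome carries each of its proteins in a fixed proportion to its RNA, and the mRNAs of these proteins are short and among the most abundant in a cell. In mammals most of these mRNAs begin with a C followed by a run of C and T, the 5′ terminal oligopyrimidine (TOP) tract, through which mTOR and the RNA-binding protein LARP1 control their translation and stability. Rpl5 and Rpl11 have a further role: when not built into ribosomes, they bind Mdm2 and raise p53.

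In LPS against control lungs, 21 of the 77 genes were higher and 0 lower, against 8.79% and 8.63% of all genes tested. The higher genes ran from 1.34-fold in Rpl19 to 2.91-fold in Rpl7a. Most of the 77 genes varied together from library to library. How many passed depended on single libraries, above all LPS library 1, which lay among the controls. LPS plus RSBD lungs had intermediate mean shares of ribosomal protein counts. Against LPS lungs no gene of the family passed the test, with 0% of all genes (edgeR). Against control lungs only Rpl28 passed, with 3.7% of all genes.

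Total counts per library ranged from 26959662 to 36113905, and the log2 CPM (counts scaled to 1000000 a library after TMM scaling) of library pairs correlated across genes at 0.953 to 0.983. Lung markers were present in every library: summed alveolar type 2 markers reached 15460.3 to 20097 CPM in LPS plus RSBD, 13503 to 20599 in LPS and 15830.3 to 19402 in control libraries. Genes of chromosome Y gave 7511 to 10918 counts in LPS plus RSBD and 8278 to 8839 in LPS libraries, but 6 to 9 in control libraries, although all mice are labelled male. Each comparison with control is therefore also a comparison of libraries with and without Y transcripts, and treatment and this difference cannot be told apart there. In whole tissue, fewer cells of a type and less RNA per cell cannot be told apart either.

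The annotated starts show the TOP tract directly in a minority of the genes. RefSeq (build GRCm38.p6) gave 69 promoters for 57 of the tested genes. At the annotated start, 13 of these genes (22.8%) had a C followed by 4 or more pyrimidines, against 3.01% of 27025 genes. The windows below belong to the 4 such genes that passed the test in LPS against control lungs, and to Rps6 and Rplp2. Each runs from 20 bases before the annotated start to the 20th transcribed base on the gene's strand, and capitals mark the unbroken run of C and T that spans the start.
Rpl28: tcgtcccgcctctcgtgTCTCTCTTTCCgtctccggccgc
Rpl15: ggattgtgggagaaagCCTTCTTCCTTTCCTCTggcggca
Rps10: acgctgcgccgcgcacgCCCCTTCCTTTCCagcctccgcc
Rps15a: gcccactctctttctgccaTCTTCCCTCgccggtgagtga
Rps6: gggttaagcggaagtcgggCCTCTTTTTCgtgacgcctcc
Rplp2: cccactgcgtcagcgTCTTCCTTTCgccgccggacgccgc
They lie at chr7:4792945-4792984 (Rpl28, plus strand), chr14:18270967-18271006 (Rpl15, minus), chr17:27635225-27635264 (Rps10, minus), chr7:118116128-118116167 (Rps15a, minus), chr4:86857348-86857387 (Rps6, minus) and chr7:141447631-141447670 (Rplp2, plus). From the start itself, the run is 13 bases long in Rpl15, 10 in Rps10, 9 in Rps6, 8 in Rpl28 and Rps15a and 5 in Rplp2. The sequence CCGGAAG, the core bound by ETS factors, lay on either strand of the RefSeq promoter window around the start in 40.4% of the ribosomal protein genes and 9.93% of all genes. AAGATGG, the core of the YY1 motif, was found in 15.8% and 7.28%, and the TATA box letters TATAAA in 10.5% and 15.7%. These are matches of letters in annotated windows, and a start that the annotation places a few bases off would miss its tract.

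Levels between genes were compared in TPM, a unit that divides by gene length and scales each library to the same total. Over the 9 libraries the mean TPM of the 77 genes had a median of 493, with 443 for the large and 633 for the small subunit, and 13 genes exceeded 1000. Rps14, a small-subunit protein, was highest at 2010.4 ± 324 TPM (SD over 9 libraries), followed by Rps15 at 1601 ± 218 and Rpl23a, which lies at the exit of the peptide tunnel, at 1555 ± 234. Their ranges over the libraries overlapped. Within each of the 9 libraries Rps14 lay above the other 2, while Rps15 and Rpl23a changed order between libraries. At the bottom were Rpl3l at 0.609 ± 0.198 TPM, Rps28 at 8.88 ± 5.17 and Rpl21 at 73.1 ± 10.9, which did not overlap within their spread.

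**Figure D1:**
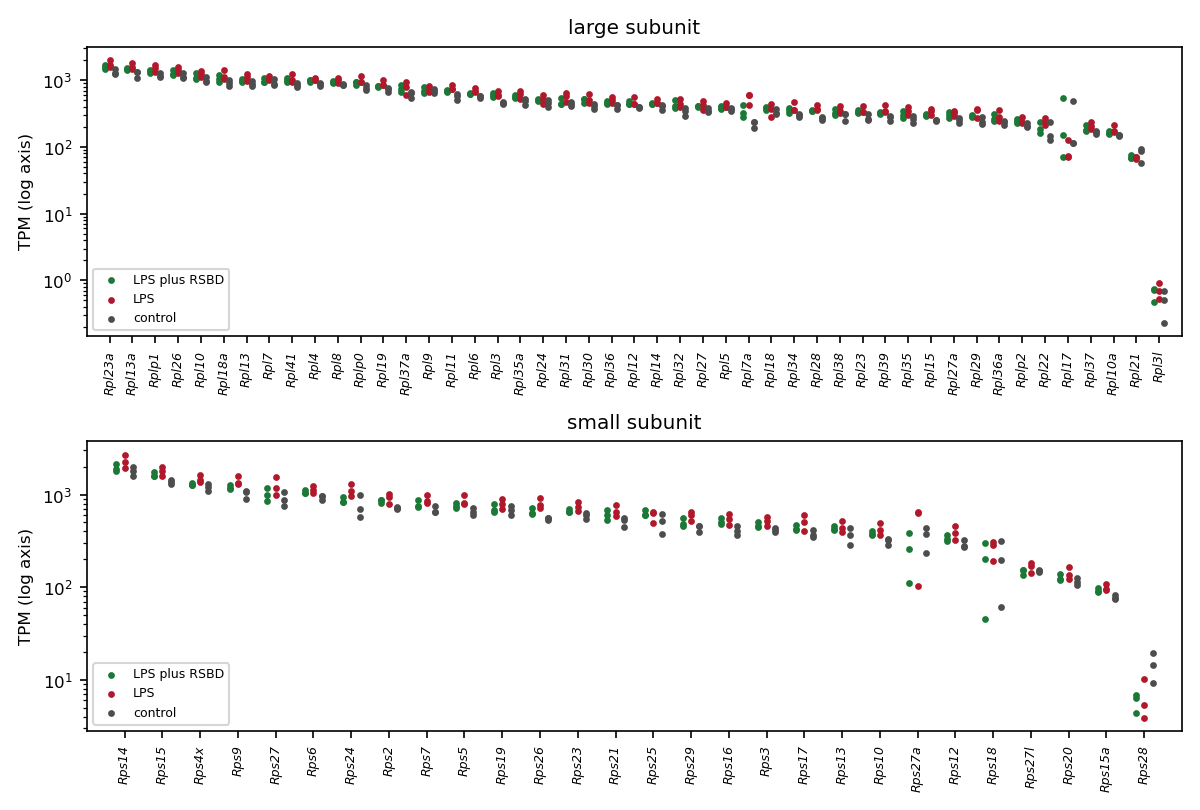
TPM (log axis) of the ribosomal protein genes reported here, 1 dot a library, with genes ordered by mean TPM within each subunit. The median gene has 493 TPM and the highest, Rps14, 2010.4, while Rpl3l and Rps28 stand apart at the low end.

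Paralogs differed in level. Rpl3l is the muscle form of Rpl3, and stood at 0.609 TPM against 559 ± 83.4 for Rpl3. Rps27l, a p53 target in mouse and human cells, stood at 153 ± 14.1 TPM against 1050.2 ± 232 for Rps27. The deposited counts of many of these genes may include reads of copies: 70 of the 77 shared at least 1 stretch of 100 bases with another annotated gene, mostly pseudogenes, and 32 shared at least 50% of their 100-base stretches. For Rps27 the share was 98.4% and for Rpl10 96.0%, and how the authors' counting treated such reads is not given in the sources used here. Of the 32 genes at 50% or more, 10 passed the test in LPS against control lungs, and the median log2 fold change of all 32 was 0.45. Of the 45 others, 11 passed, and the median of all 45 was 0.44. Over all genes tested 17.4% passed in this comparison, and the median was -0.01.

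The share of each library's counts that fell in the 79 genes was, from library 1 to 3, 2.27%, 2.31% and 2.49% with LPS plus RSBD. For LPS it was 2.08%, 3.01% and 2.68%, and for control 2.10%, 1.77% and 1.93%. The group means were 2.36% ± 0.12, 2.59% ± 0.47 and 1.94% ± 0.16 (SD, n = 3 each). LPS libraries 2 and 3 lay above all 7 others, while LPS library 1 lay below control library 1. The large-subunit genes took 1.23%, 1.75% and 1.57% of counts in LPS libraries and 1.22%, 1.04% and 1.15% in control libraries, and the small-subunit genes 0.857%, 1.26% and 1.12% against 0.879%, 0.738% and 0.783%. In both subunits LPS libraries 2 and 3 exceeded all control libraries, while LPS library 1 lay below control library 1 in the small subunit and just above it in the large.

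**Figure D2:**
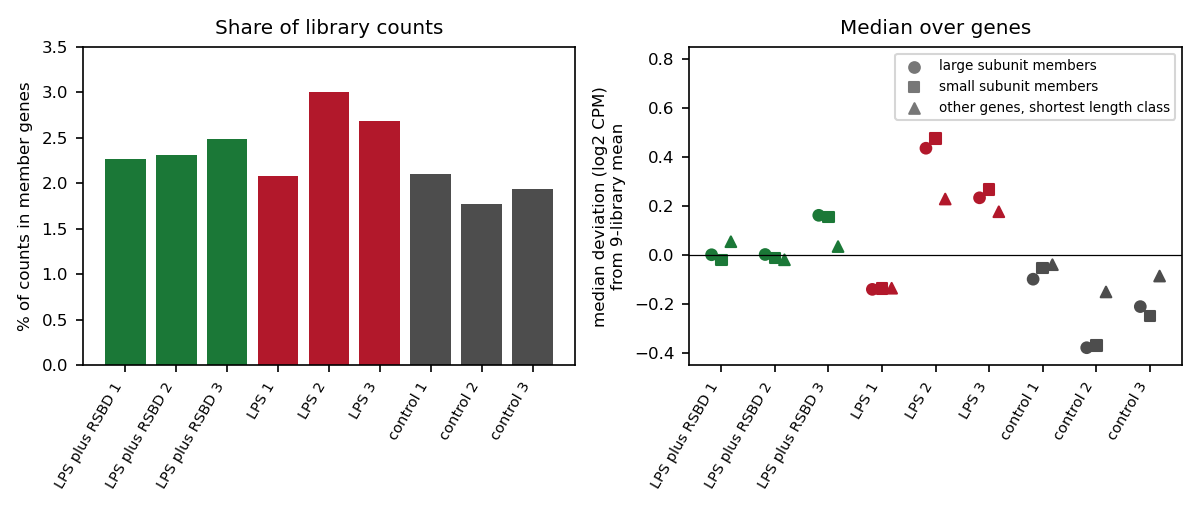
Left, percent of each library's counts in the 79 genes. Right, median over genes of the deviation of log2 CPM from each gene's 9-library mean, for large-subunit genes, small-subunit genes and other genes of the shortest length class. LPS libraries 2 and 3 lie highest, and LPS library 1 lies below 0 with the control libraries.

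Gene by gene the order was nearly the same. LPS library 2 held the highest CPM of all 9 libraries for 70 of the 77 genes, and control library 2 the lowest for 67. Among LPS libraries, library 1 was lowest for 75 genes. For 48 genes it lay below the highest control library, and for the other 29 above all control libraries. LPS libraries 2 and 3 both exceeded every control library for 74 genes. The LPS plus RSBD libraries were the most even: the ratio of their highest to lowest CPM had a median of 1.15 over the genes, against 1.48 in LPS and 1.25 in control libraries.

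The comparison of LPS with control lungs is also one of libraries with and without Y transcripts. In it, 21 of the 77 genes were higher and 0 lower at an adjusted p below 0.05 (edgeR). Of all 15636 genes tested, 17.4% passed, 8.79% upward and 8.63% downward. The 21 were 13 of the 47 large-subunit genes and 8 of the 30 small-subunit genes. The median log2 fold change was 0.44 (0.44 large, 0.46 small), against -0.01 over all genes tested, and 74 of 77 values were above 0. At an unadjusted p below 0.05 there were 65 of 77 genes, against 34.5% of all genes. Groups did not overlap, with LPS higher, for 29 of the 77, against 18.6% of all genes, and with LPS lower for 0, against 19.5%.

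The count rested on single libraries. Without LPS library 1 it was 69 of 77, against 18.2% of all genes tested. It was 4 without LPS library 2 (4.98% of all genes), 8 without LPS library 3 (10.3%), 3 without control library 2 (5.66%) and 5 without control library 3 (6.33%). In these 4 fits the calls over all genes fell as well, and the share called among the 77 was close to that over all genes, though every called gene of the family was higher. DESeq2 called 58 of 77 and 24.6% of all genes. The median stayed between 0.30 and 0.60 on the log2 scale when any 1 library was left out. Rpl28 and Rpl7a passed in every one of these fits.

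**Figure D3:**
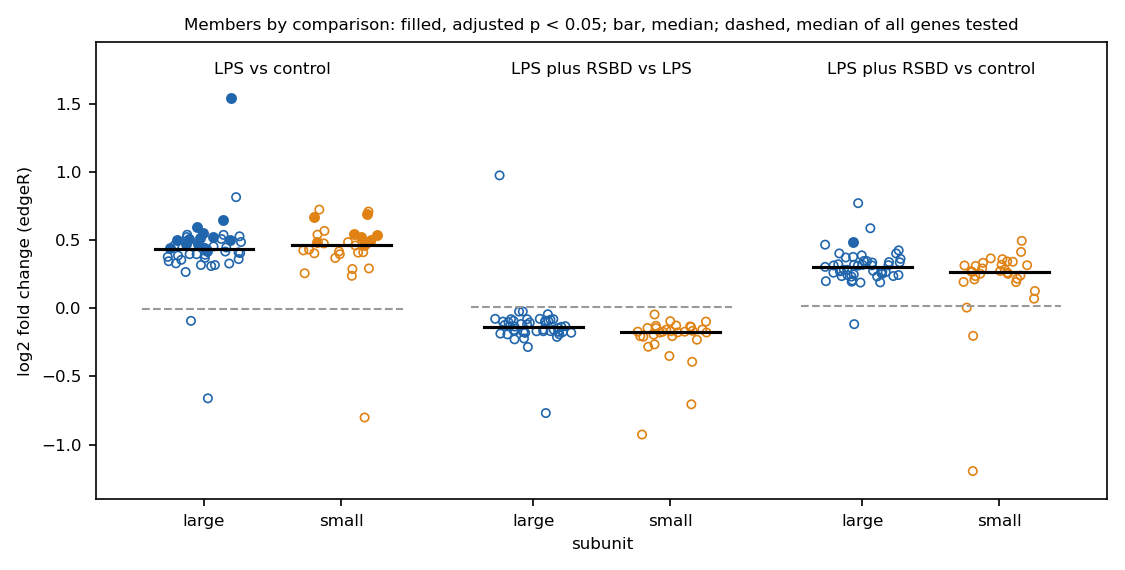
log2 fold change of each gene in the 3 comparisons by subunit (filled points, adjusted p below 0.05 with edgeR; bar, median of the genes; dashed line, median of all genes tested). In LPS against control lungs 21 points are filled, and the 2 subunits have medians of 0.44 and 0.46.

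The largest difference was in Rpl7a, an RNA-binding protein of the large subunit (chr2:26910764-26913318, plus strand). Rpl7a had 222, 147 and 177 CPM in LPS plus RSBD libraries, 212, 356 and 362 CPM in LPS libraries and 119, 89.9 and 111 CPM in control libraries. Every LPS library lay above every control library, and LPS libraries 2 and 3 stood apart from library 1. The log2 fold change in LPS against control was 1.54 ± 0.22 (SE; adjusted p = 0.00528). Of the 100-base stretches of Rpl7a, 73.5% also occur in other genes, 37 in number, so its count may hold reads of those copies.

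Rpl28, a large-subunit protein of animals that budding yeast lacks (chr7:4792874-4795066, plus strand), had 210.2, 209.6 and 228 CPM in LPS plus RSBD, 196, 276 and 249 CPM in LPS and 154, 151 and 157 CPM in control libraries. Its control libraries were close together and below all 6 others. The log2 fold change was 0.64 ± 0.12 in LPS against control lungs (adjusted p = 0.00841). Rpl28 begins with the 8-base pyrimidine run shown above.

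Rps26, whose human gene is mutated in Diamond-Blackfan anaemia (chr10:128624534-128626747, minus strand), had 241, 236 and 277 CPM in LPS plus RSBD, 255, 386 and 321 CPM in LPS and 203, 189.9 and 202 CPM in control libraries. LPS libraries lay above all control libraries, and the log2 fold change was 0.69 ± 0.14 (adjusted p = 0.0117).

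Rpl3, which reaches toward the peptidyl transferase centre (chr15:80077791-80091868, minus strand), had 477, 551 and 532 CPM in LPS plus RSBD, 462, 629.9 and 561 CPM in LPS and 389, 349.9 and 389.8 CPM in control libraries. The LPS and control groups did not overlap, and the log2 fold change was 0.55 ± 0.12 (adjusted p = 0.0162). Rpl15 of the large subunit (chr14:18267823-18271391, minus strand) had 286, 299 and 320.3 CPM in LPS plus RSBD, 266, 392 and 362 CPM in LPS and 240.4, 223 and 211 CPM in control libraries. Its groups did not overlap either, and the log2 fold change was 0.60 ± 0.13 (adjusted p = 0.0175).

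A further 15 genes past the test were Rpl6, Rpl11, Rpl13a, Rpl19, Rpl23, Rpl23a, Rpl27a, Rpl39, Rplp0, Rps2, Rps9, Rps10, Rps15, Rps15a and Rps29. Their log2 fold changes ran from 0.42 in Rpl19 to 0.54 in Rps9, and their adjusted p from 0.0253 in Rps9 to 0.0469 in Rpl19. Among the 13 genes with a TOP tract at the annotated start 4 passed, and the median log2 fold change of all 13 was 0.48. Among the 44 without it 13 passed, and the median of all 44 was 0.43. Over all genes tested 17.4% passed. The 44 include Rpl27a and Rpl7a, whose runs of 16 and 7 pyrimidines at the annotated start do not open with C. They are thus not a group known to lack the tract.

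**Figure D4:**
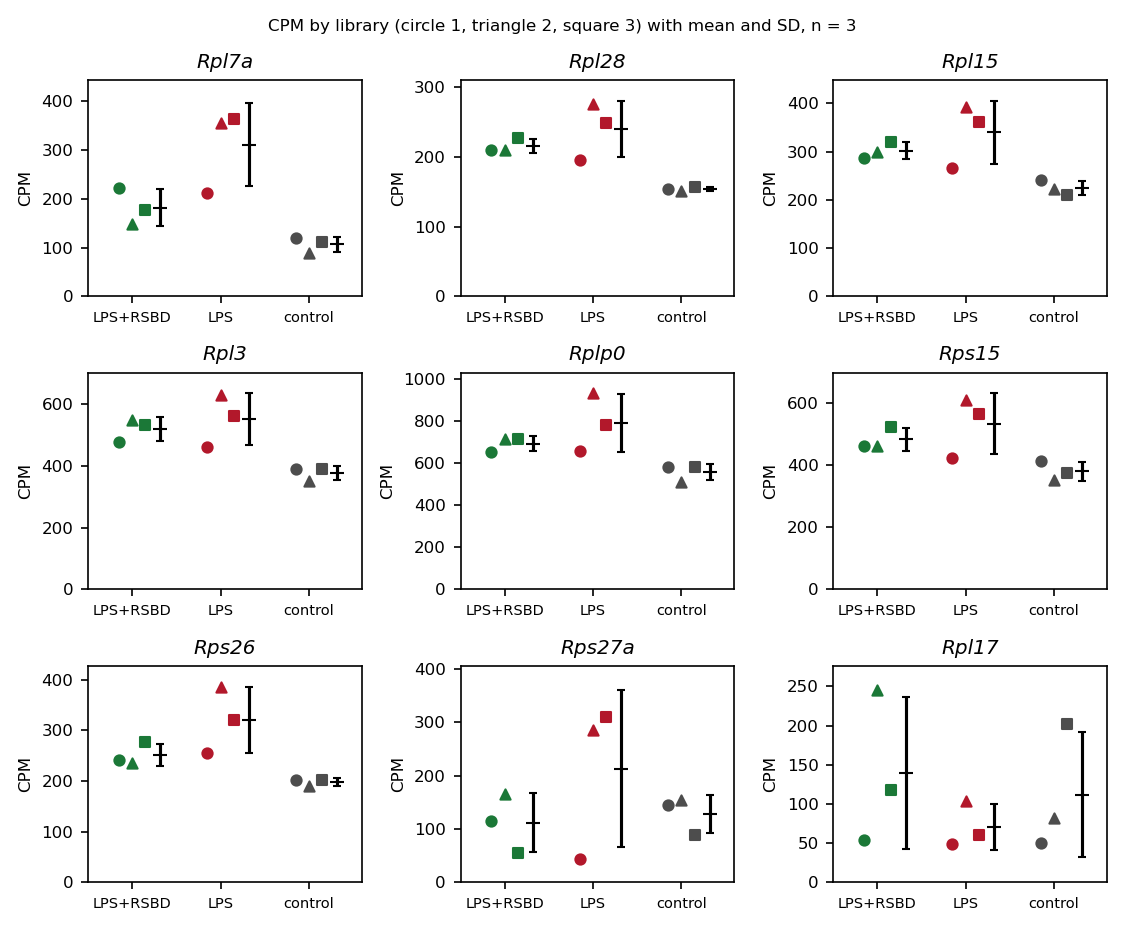
CPM of 9 ribosomal protein genes in each library (circle, triangle and square for libraries 1, 2 and 3), with mean and SD of each group (n = 3). In 7 of the 9 genes the control libraries lie lowest as a group, while Rps27a and Rpl17 vary by several fold within groups.

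The stalk of the large subunit, which recruits elongation factors, consists of Rplp0, Rplp1 and Rplp2. Rplp0 averaged 695 ± 36.1 CPM in LPS plus RSBD, 793 ± 136 in LPS and 559 ± 39.3 in control lungs (SD, n = 3 each), and its LPS against control log2 fold change of 0.50 ± 0.13 passed (adjusted p = 0.0273). Rplp1 averaged 398 ± 22.2, 447 ± 93.3 and 329 ± 37.9 CPM in the same order of groups and did not pass (adjusted p = 0.0652 with edgeR). Rplp2 averaged 136 ± 7.72, 138 ± 24.5 and 107 ± 6.58 CPM and did not pass either (adjusted p = 0.0573). All LPS libraries exceeded all control libraries for Rplp0 and Rplp2, and LPS library 1 overlapped the controls for Rplp1.

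Of the pair that binds Mdm2, Rpl11 passed and Rpl5 did not. Rpl11 had 304, 320.3 and 339.6 CPM in LPS plus RSBD, 296, 421 and 370.5 CPM in LPS and 288, 224 and 258 CPM in control libraries, with an LPS against control log2 fold change of 0.50 ± 0.14 (adjusted p = 0.0352). Rpl5 had 410.1, 435 and 473 CPM in LPS plus RSBD, 401, 548 and 485 CPM in LPS and 421, 351 and 379 CPM in control libraries, and its log2 fold change was 0.32 ± 0.12 (adjusted p = 0.102). LPS library 1 lay below control library 1 for Rpl5 and just above it for Rpl11, and the difference between the 2 genes was not tested. Of 18 p53 target genes, 0 were higher and 1 was lower in LPS against control lungs, against 8.79% and 8.63% of all genes tested. The lower gene was Aen, a nuclease of apoptosis, at a log2 fold change of -0.44 (adjusted p = 0.0233).

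Rps6, the ribosomal protein that S6 kinases phosphorylate downstream of mTOR, missed the threshold narrowly. It had 522, 544 and 583 CPM in LPS plus RSBD, 514, 677 and 574 CPM in LPS and 485, 421 and 461 CPM in control libraries, without overlap between LPS and control. The LPS against control log2 fold change was 0.37 ± 0.11 (adjusted p = 0.0508). Rps19, the gene most often mutated in human Diamond-Blackfan anaemia, had 289, 315 and 368 CPM in LPS plus RSBD, 290.2, 425 and 373 CPM in LPS and 333, 264 and 293 CPM in control libraries. LPS library 1 lay within the control range, and the log2 fold change was 0.29 ± 0.15 (adjusted p = 0.197).

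Rpl22, needed for T cell development in mice, averaged 190.4 ± 13.0 CPM in LPS plus RSBD, 196 ± 39.9 in LPS and 144 ± 22.3 in control lungs (SD, n = 3 each), with a log2 fold change of 0.45 ± 0.15 in LPS against control (adjusted p = 0.0703). Rpl13a, which in human monocytes can leave the ribosome to silence inflammatory mRNAs, averaged 664 ± 33.2, 741 ± 139 and 533 ± 60.7 CPM in the same order. Its log2 fold change was 0.47 ± 0.14 and passed (adjusted p = 0.0464), although LPS library 1 at 589 CPM lay just below control library 1 at 590.2 CPM.

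Among paralogs, Rpl3l had 6 to 24 counts a library. Its log2 fold change in LPS against control was 0.82 ± 0.47 and did not pass (adjusted p = 0.25), and its difference from Rpl3 was not tested. Rps27 averaged 218 ± 26.9, 265 ± 60.6 and 179 ± 35.2 CPM in LPS plus RSBD, LPS and control lungs (log2 fold change in LPS against control 0.57 ± 0.18, adjusted p = 0.0576). Rps27l averaged 43.4 ± 3.15, 48.7 ± 10.5 and 41.3 ± 2.19 CPM (0.24 ± 0.14, adjusted p = 0.267).

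Of the 4 genes on chromosome X, Rpl39 passed in LPS against control lungs and 3 did not. Rpl39, a small protein lining the peptide exit tunnel, averaged 116 ± 6.61 CPM in LPS plus RSBD, 132 ± 25.9 in LPS and 91.8 ± 10 in control lungs, with a log2 fold change of 0.52 ± 0.14 (adjusted p = 0.0301). Rps4x averaged 738 ± 37.9, 851 ± 143 and 646 ± 83.0 CPM (0.40 ± 0.14, adjusted p = 0.0735). Rpl10, which joins the large subunit late in its assembly, averaged 559.9 ± 65.0, 613 ± 111 and 467 ± 59.8 CPM (0.39 ± 0.15, adjusted p = 0.0973). Rpl36a averaged 80.1 ± 10, 87.7 ± 21.6 and 64.8 ± 5.92 CPM (0.44 ± 0.17, adjusted p = 0.101).

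Of the 3 genes highest in TPM, 2 passed in LPS against control lungs. Rps15 (log2 fold change in LPS against control 0.49 ± 0.14, adjusted p = 0.0364) and Rpl23a (0.52 ± 0.15, adjusted p = 0.0383) passed, and Rps14 did not (0.41 ± 0.17, adjusted p = 0.117).

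Only 3 genes had a negative log2 fold change in LPS against control lungs, and none of them passed. Rps28, a small protein near the mRNA exit, had 1.97, 2.13 and 2.54 CPM in LPS plus RSBD, 2.45, 4.54 and 1.71 CPM in LPS and 3.59, 6.91 and 4.70 CPM in control libraries (-0.80 ± 0.37, adjusted p = 0.153). Rpl17, near the exit of the peptide tunnel, had 54.4, 245 and 118 CPM in LPS plus RSBD, 48.8, 104 and 59.9 CPM in LPS and 50.9, 82.8 and 202 CPM in control libraries (-0.66 ± 0.61, adjusted p = 0.475). Rpl21 had 49.7, 48.1 and 55.6 CPM in LPS plus RSBD, 42.6, 60.3 and 53.1 CPM in LPS and 64.0, 38.7 and 63.7 CPM in control libraries (-0.09 ± 0.19, adjusted p = 0.768). In all 3 genes the LPS and control libraries overlapped, and leaving out 1 library turned the sign in Rpl17 (up to 0.083) and Rpl21 (up to 0.033).

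These genes, with Rps27a and Rps18, followed the common library order only in part or not at all. In Rps18 LPS library 2 was still the highest of all libraries, and in Rpl21 control library 2 was the lowest. Rps27a, made as a fusion with ubiquitin, had 116, 166 and 54.3 CPM in LPS plus RSBD, 44.1, 285 and 310.2 CPM in LPS and 145, 154 and 88.0 CPM in control libraries. Rps18, named here after its values were seen, had 20.0, 90.8 and 84.1 CPM in LPS plus RSBD, 74.3, 129.8 and 113 CPM in LPS and 92.8, 75.7 and 25.4 CPM in control libraries. The highest library exceeded the lowest of the same group 7.03-fold in Rps27a, 4.55-fold in Rps18, 4.50-fold in Rpl17 and 2.66-fold in Rps28, and in none of the other 73 genes did it exceed 2-fold. These 4 genes share 69.1%, 51.2%, 77.1% and 42.8% of their 100-base stretches with other genes, in that order, and the part of such copies in their spread was not tested.

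Gene length moved with the same libraries. By the length implied by counts and TPM, 62 of the 77 genes fell in the shortest of 10 equal classes of all genes tested. The other 1501 genes of that class had a median log2 fold change of 0.18 in LPS against control lungs, and the longest class -0.15. In LPS libraries 1 to 3 those short genes deviated by a median of -0.14, 0.23 and 0.18 (log2) from their 9-library means, and the deviations in control libraries were -0.04, -0.15 and -0.09. The ribosomal protein genes deviated by -0.14, 0.44 and 0.25 in LPS and by -0.09, -0.37 and -0.23 in control libraries. With a smooth trend on length removed from each library, a step chosen after seeing the data, the median of the 77 genes was 0.26 and 20 passed, 17 of them among the original 21, against 16.7% of all genes.

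**Figure D5:**
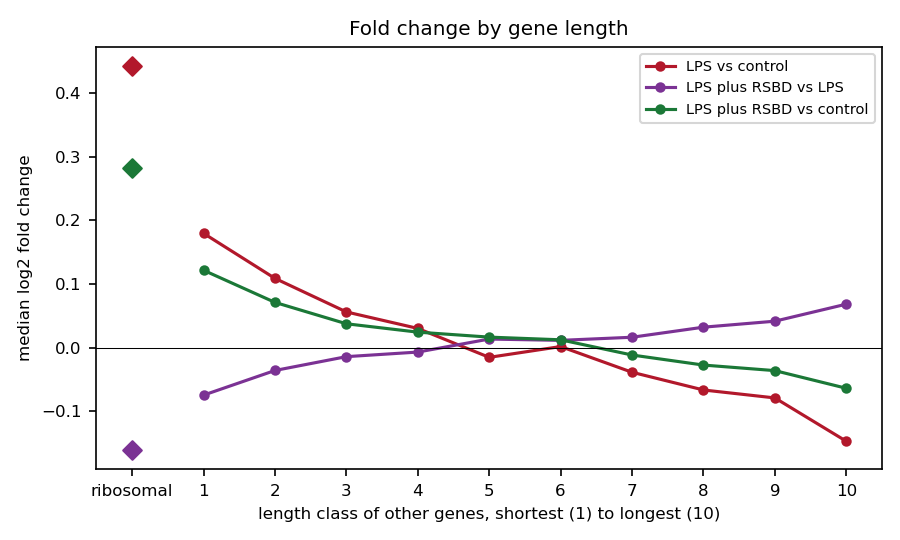
Median log2 fold change by class of implied gene length (1, shortest, to 10, longest) for genes outside the family (lines) and for the 77 ribosomal protein genes (diamonds), in the 3 comparisons. The lines slope with length, downward for both comparisons with control and upward for LPS plus RSBD against LPS, and the diamonds lie farther from 0 than the shortest class in each.

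LPS plus RSBD was compared with LPS to ask what RSBD changed in injured lungs, and no ribosomal protein gene passed (0 of 77, with 0% of all genes by edgeR). DESeq2 called 1 of 77, Rpl7a, which was lower, and 1.06% of all genes. At an unadjusted p below 0.05 there were 2 of 77, Rpl7a and Rps26, against 9.42% of all genes. The median log2 fold change was -0.16 (-0.14 large, -0.17 small), against 0.01 over all genes, and 76 of 77 values were below 0. The median was -0.02 without LPS library 2, with 25 genes above 0, and -0.30 without LPS library 1, and it was -0.07 with the length trend removed. The groups overlapped for all 77 genes, while 7.18% of all genes were separated upward and 5.46% downward. For 66 genes all 3 LPS plus RSBD libraries lay between LPS library 1 and LPS library 2.

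Rpl7a had the most negative large-subunit value, -0.77 ± 0.22 in LPS plus RSBD against LPS (adjusted p = 0.394 with edgeR), and its LPS plus RSBD library 1 at 222 CPM exceeded LPS library 1 at 212 CPM. Rps26 stood at -0.35 ± 0.14 (adjusted p = 0.485). The lowest small-subunit value was -0.93 ± 0.63 in Rps27a (adjusted p = 0.69). Rpl17 alone was above 0, at 0.98 ± 0.61 (adjusted p = 0.653). The groups overlapped in each of these 4 genes.

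Against control lungs, which share their libraries with the first comparison, LPS plus RSBD lungs had 1 of 77 genes past the test, against 3.7% of all genes (1.89% higher, 1.8% lower). That gene was Rpl28, at a log2 fold change of 0.49 ± 0.11 (adjusted p = 0.0476 with edgeR). Leaving out 1 library at a time gave 0 to 6 calls: 6 without LPS library 1 (6.08% of all genes), 2 without LPS library 2 (2.17%) and 0 without any of the other 7 libraries (0.596% to 3.56%). DESeq2 called 7, of which 6 were higher and 1 lower, against 11.2% of all genes. At an unadjusted p below 0.05 there were 27 of 77 genes, against 22.7% of all genes. The median log2 fold change was 0.28 (0.30 large, 0.27 small), against 0.01 over all genes, and 74 of 77 values were above 0. With the length trend removed it was 0.17, and 4 genes passed, Rpl28, Rpl3 and Rpl7a among them, against 4.58% of all genes.

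For 49 of the 77 genes the LPS plus RSBD libraries all lay above the control libraries (15.4% of all genes), and for 1 gene, Rps28, all below (15% of all genes). The 49 were 35 of the 47 large-subunit genes and 14 of the 30 small-subunit genes. Rpl7a (0.77 ± 0.22, adjusted p = 0.0852) had the highest large-subunit value in LPS plus RSBD against control and Rpl21 (-0.12 ± 0.19, adjusted p = 0.756) the lowest. Rps28 (-1.19 ± 0.37, adjusted p = 0.0996) had the lowest of the small subunit.

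Further cytosolic ribosomal protein genes lie outside the name pattern. Of the 8 tested, 5 were higher in LPS against control lungs, while 8.79% of all genes were higher. The 8 had a median log2 fold change of 0.49. Rack1, a scaffold on the small subunit, had 419, 426 and 435 CPM in LPS plus RSBD, 418, 566 and 499 CPM in LPS and 350.0, 350.0 and 338 CPM in control libraries (0.51 ± 0.11, adjusted p = 0.0138). Fau, a ubiquitin-like fusion (0.55 ± 0.13, adjusted p = 0.0216), and Rpsa, known also as a laminin receptor (0.54 ± 0.13, adjusted p = 0.0219), came next by p. Rpl7l1, at -0.01 ± 0.11 (adjusted p = 0.963), lay lowest of the 8.

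Of 22 translation factors and related genes whose mRNAs also carry TOP tracts, 9 were higher and 0 lower in LPS against control lungs. Over all genes tested 8.79% were higher and 8.63% lower, and the median of the 22 was 0.33. Hnrnpa1, an RNA-binding protein, had 325, 369 and 345 CPM in LPS plus RSBD, 365, 335 and 332 CPM in LPS and 233, 253 and 219 CPM in control libraries. Its log2 fold changes were 0.55 ± 0.09 in LPS against control (adjusted p = 0.00616) and 0.56 ± 0.09 in LPS plus RSBD against control (adjusted p = 0.0147), and LPS library 1 was the highest of its group. The initiation factor subunits Eif3h (0.52 ± 0.09, adjusted p = 0.00816) and Eif3f (0.55 ± 0.10, adjusted p = 0.00929) also passed in LPS against control. In LPS plus RSBD against control 3 of the 22 passed, against 3.7% of all genes. They were these 2 (Eif3h 0.39, adjusted p = 0.0468, and Eif3f 0.51, adjusted p = 0.0309) and Hnrnpa1.

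The next lists hold genes that build or regulate ribosomes without being part of them. Over all genes tested, 17.4% passed in LPS against control lungs, 8.79% upward and 8.63% downward. Of 48 ribosome biogenesis genes 2 were higher and 1 lower in LPS against control lungs, with a median of -0.10. Pes1 (0.25 ± 0.07, adjusted p = 0.0439) and Nhp2 (0.42 ± 0.12, adjusted p = 0.0427) act in the processing and modification of ribosomal RNA, and Gnl3, nucleostemin, was lower (-0.52 ± 0.11, adjusted p = 0.0132). Of 24 other initiation factors 0 were higher and 3 lower, Eif4g1 (-0.34 ± 0.08, adjusted p = 0.0273), Eif3b (-0.35 ± 0.09, adjusted p = 0.0285) and Eif2b3 (-0.38 ± 0.11, adjusted p = 0.0428), with a median of -0.04.

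Of 24 genes of mTOR signalling and TOP regulation, 1 passed in LPS against control lungs, while 17.4% of all genes did. Larp1b, a relative of Larp1, had 17.7, 18.2 and 19.0 CPM in LPS plus RSBD, 17.6, 17.6 and 18.5 CPM in LPS and 26.1, 27.1 and 30.8 CPM in control libraries (-0.65 ± 0.10 in LPS against control, adjusted p = 0.0057). In LPS plus RSBD against control, Larp1b was lower (-0.61 ± 0.10, adjusted p = 0.0154), Gnl3 was lower (-0.47 ± 0.11, adjusted p = 0.0419) and Pdcd4, an inhibitor of translation initiation, was higher (0.34 ± 0.08, adjusted p = 0.0389).

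The mitochondrial ribosome is built from separate proteins encoded in the nucleus. Of 49 large-subunit genes 7 were higher and 0 lower in LPS against control lungs (median 0.24), and of 29 small-subunit genes 3 were higher and 0 lower (median 0.12), while 8.79% of all genes were higher and 8.63% lower. The share of the small subunit, 10.3%, was near that of all genes. By p, Mrpl30 (0.46, adjusted p = 0.0237), Mrpl53 (1.28, adjusted p = 0.026) and Mrpl33 (0.43, adjusted p = 0.0292) led the large and Mrps16 (0.62, adjusted p = 0.00947), Mrps18c (0.66, adjusted p = 0.0308) and Mrps26 (0.51, adjusted p = 0.0453) the small subunit. Of the 13 mitochondrially encoded genes 5 were higher. No gene of any of these lists passed in LPS plus RSBD against LPS (edgeR).

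Markers of other cell types were counted in the same comparison, in which 17.4% of all genes passed. Of 12 alveolar macrophage markers 6 were higher in LPS against control lungs. Their summed CPM was 1082 to 2024 in LPS plus RSBD, 2061, 3992 and 3176 in the 3 LPS libraries and 1371 to 1716 in control libraries. Of 14 neutrophil markers 2 were higher, with sums of 765 to 3537 CPM in LPS plus RSBD, 7763, 7092 and 2748 in the 3 LPS libraries and 949 to 2520 in control libraries. Among LPS libraries the macrophage sum was thus highest in library 2, where Chil3 alone gave 3209 CPM, and the neutrophil sum in library 1. Of 12 ciliated cell markers 5 were lower, with sums of 483 to 799 CPM in LPS plus RSBD, 373, 462 and 489 in the 3 LPS libraries and 562 to 968 in control libraries.

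Of 13 T cell and 12 B cell markers 0 passed in either direction, with T cell sums of 230 to 465, 267 to 296 and 209 to 233 CPM and B cell sums of 407 to 531, 348 to 396 and 251 to 455 CPM. Of 10 erythroid markers 1 was higher, with sums of 4667 to 9486 CPM in LPS plus RSBD, 4656, 7367 and 8553 in the 3 LPS libraries and 549 to 4407 in control libraries. The ciliated, erythroid and alveolar type 2 sums were highest in library 3 among LPS libraries. Type 1 alveolar markers had 1 higher and 1 lower of 12, type 2 markers 0 and 1 of 12, and endothelial markers 2 and 0 of 12, each at or below the 17.4% of all genes. Immediate early genes, which respond to tissue handling, had 0 higher and 7 lower of 17, with sums of 1406 to 1728 CPM in LPS plus RSBD, 1160.3 to 1229.7 in LPS and 1408 to 1514 in control libraries. No marker was at 0 in all libraries, and the part of cell makeup in the ribosomal protein values was not tested.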

How the data were processed

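Lung mRNA libraries, strand-specific and paired-end at 150 bases per the labels' protocols, were counted by the authors. Tools named, without roles, per the submitters' processing notes are HISAT2 2.2.1, fastp 0.23.2, DESeq2 1.38.3 and StringTie 2.2.0, with GRCm38 as the build; annotation release and handling of multi-mapping reads are not stated there. The deposited tables of the authors hold estimated counts (expected counts), whole numbers throughout, and TPM. Table columns carry group and number, and those of LPS plus RSBD were assigned by elimination.

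All 15636 genes kept by filterByExpr (minimum count 10, minimum total 15) were fitted in R 4.3.3 with edgeR 4.0.16 (TMM, quasi-likelihood, robust, 3 groups, 9 libraries). Tests are 2-sided quasi-likelihood F tests with Benjamini-Hochberg adjustment over all genes and a threshold of 0.05. CPM are TMM-scaled. The common biological coefficient of variation was 0.189. Alternatives used DESeq2 1.42.0, limma 3.58.1 on log2(TPM + 1) and log2(TPM + 0.1), other scalings and filters, left-out libraries and a replicate block. The fit was tested on simulated data.

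The genes, the 19 lists and the naming rule were chosen with earlier results of these data known. Named with values are the 6 called genes of smallest p per comparison and direction, the extreme fold changes per subunit, fixed genes (stalk, Rpl5, Rpl11, Rps6, Rpl22, Rps19, Rpl13a, paralogs, X-linked), the 3 highest and 3 lowest by TPM, and of each other list up to 3 called genes; a few genes under this rule are not reported here, and Rps18 and Rpl7l1 were named after their values were seen. Shared 100-base stretches were counted over GENCODE M21 transcripts, whose coordinates match the table for all 79 genes. Promoters are from RefSeq, and no protein sequence was used here.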

Additional observations from a re-analysis of the deposited data

How the results depend on the processing

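In LPS against control lungs, 21 genes passed (17.4% of all genes tested). DESeq2 called 58 (24.6% of all genes) and the fit with a replicate block 9 (11.7%). Leaving out 1 library gave 3 to 69, while the share over all genes ran from 4.98% to 18.2%. The other alternatives gave 15 to 27, with 12.7% to 17.5% of all genes. In LPS plus RSBD against LPS, DESeq2 called 1 (1.06% of all genes) and every other alternative 0 (0% to 0.0253%). In LPS plus RSBD against control, 1 gene passed in the main test (3.7% of all genes). DESeq2 called 7 (11.2%), and the length-trend fit (4.58%) and the fit of only the 2 groups (2.64%) called 4 each. Both limma fits on log2 TPM (1.76% and 1.93%) and the replicate block (1.53%) called 0. Leaving out 1 library gave 0 to 6, while the share over all genes ran from 0.596% to 6.08%. Same-numbered libraries did not deviate together (correlations of -0.21 to 0.12), though such correlations cannot exclude a weak pairing. Over all genes the block gave 1828, 0 and 240 calls against 2723, 0 and 578. On log2(TPM + 0.1) the median of all genes in LPS against control moved to -0.10 and that of the 77 genes to 0.35, and on log2(TPM + 1) 696 of 1996 calls over all genes were upward, against 1374 of 2723. The family's share was 5.84%, 6.34% and 4.97% of TPM in LPS plus RSBD, LPS and control libraries, and with 8 further cytosolic genes 2.61% of counts in LPS plus RSBD and 2.14% in control libraries. Of the other values of named genes, 1565 kept their call and direction, 33 newly passed, 55 no longer passed and 27 changed sign; the cause was not tested. None of these 27 passed the test in either fit, and 17 came from leaving out 1 library. Over the fits without 1 library, the log2 fold change in LPS plus RSBD against LPS ran from -0.15 to 0.10 in Rpl21, -0.19 to 0.11 in Rpl22, -0.20 to 0.023 in Rpl3, -0.31 to 0.047 in Rpl36a, -0.38 to 0.054 in Rpl3l, -0.13 to 0.12 in Rplp2, -0.68 to 0.090 in Rps28 and -0.19 to 0.015 in Rps6. In LPS against control it ran from -1.04 to 0.083 in Rpl17 and -0.30 to 0.033 in Rpl21, and in LPS plus RSBD against control from -0.38 to 1.06 in Rpl17 and -0.60 to 0.13 in Rps27a. With the length trend removed, Rps27l stood at -0.043 in LPS against control and -0.090 in LPS plus RSBD against control, and Rpl21 at 0.024 and Rplp2 at 0.047 in LPS plus RSBD against LPS. The limma fits with pseudocounts of 1 and 0.1 gave 0.030 and 0.031 for Rpl21 in LPS plus RSBD against LPS, and in LPS plus RSBD against control -0.048 and -0.049 for Rpl17 and -0.019 in both for Rps27l. Depth limits Rpl3l and Rps28, with 6 to 24 and 47 to 217 counts a library.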
